A study of Mus musculus with 5 samples.

Results

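Abi3bp, Gpx6 and Sbsn are 3 genes whose reads were low in striatum of Adcy5 knock-in mice. They were chosen by that difference, that is by the fold change and adjusted p of knock-in against wild-type libraries, so their fold changes and p-values are given as a description of the choice and not as a test. All 3 genes were among the 13665 features with enough counts to be tested, out of 53700 in the files. Gene counts were made from homogenised striatum of adult mice. One group carries the Adcy5 R419W allele (KI, n = 2, replicates 1 and 3), and the other is their wild-type littermates (WT, n = 3, replicates 1, 2 and 3). Adcy5 encodes the adenylyl cyclase most abundant in striatal neurons. The labels give neither the number of R419W copies nor the animals behind each library, so the spread between libraries may be in part technical.

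Abi3bp encodes a secreted extracellular matrix protein first found as a partner of the SH3 domain of ABI3, with fibronectin type III repeats. Gpx6 encodes a glutathione peroxidase, an enzyme family that reduces peroxides at the expense of glutathione. It is best known from olfactory epithelium, and the rodent enzyme has cysteine at the position where the human one has selenocysteine. Sbsn encodes suprabasin, a secreted protein of the upper layers of the epidermis whose gene lies in a cluster with Dmkn and Krtdap. Adenylyl cyclase makes cAMP, which acts in neurons through protein kinase A and through transcription factors of the CREB family that bind cAMP response elements.

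The counts lie at positions of the mouse build GRCm38 although they were collected on features placed by GRCm39, so each gene is read by a feature that carries another gene's label. No GRCm38 exon lay under 63.13% of the features, which held 1.06% of the counts. Abi3bp lies on chromosome 16 from 56477878 to 56690135 on the plus strand (GRCm38) and was read by the feature labelled Tmem45a. Only 234 of its 7416 exon bases (3.16%) lie under that feature, all of them coding, in 4 of 59 exon blocks. Another 2541 bases of the feature lie in Abi3bp introns and 354 beyond its end. Gpx6 lies on chromosome 13 from 21312125 to 21319624, plus strand. It was read by the feature labelled Olfr263 over 994 of 1368 exon bases (72.7%), of which 422 are coding. Another 2186 bases of that feature lie in Gpx6 introns and 842 outside the gene. Sbsn lies on chromosome 7 from 30751471 to 30756134, plus strand. It was read by the feature labelled Fxyd1 over 1305 of 3625 exon bases (36.0%), of which 871 are coding. A further 113 bases of that feature lie in Sbsn introns and 768 outside the gene.

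The following stretches are examples of the coding sequence through which the genes were read, from 1 GENCODE M21 transcript per gene (GRCm38, plus strand). They are 3 of the 4 exon blocks touched in Abi3bp, 218 of the 422 coding bases read in Gpx6 and 57 of the 871 read in Sbsn. Capitals mark bases under the counted feature and lower case the 15 coding bases next to them. The Abi3bp stretches lie at chr16:56626667-56626747, chr16:56631889-56631945 and chr16:56652137-56652217. The Gpx6 stretch joins exons 3 and 4, within chr13:21316985-21317668, and the Sbsn stretch at chr7:30751562-30751618 opens with the start codon.
Abi3bp exon 31: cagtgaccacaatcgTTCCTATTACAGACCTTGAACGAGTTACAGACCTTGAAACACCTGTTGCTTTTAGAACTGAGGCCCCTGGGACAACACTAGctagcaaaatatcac
Abi3bp exon 36: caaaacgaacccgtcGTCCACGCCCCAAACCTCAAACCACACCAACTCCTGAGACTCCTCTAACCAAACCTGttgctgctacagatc
Abi3bp exon 46: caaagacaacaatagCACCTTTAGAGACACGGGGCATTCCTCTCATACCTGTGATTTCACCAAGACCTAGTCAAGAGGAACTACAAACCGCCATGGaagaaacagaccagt
Gpx6 exons 3 to 4: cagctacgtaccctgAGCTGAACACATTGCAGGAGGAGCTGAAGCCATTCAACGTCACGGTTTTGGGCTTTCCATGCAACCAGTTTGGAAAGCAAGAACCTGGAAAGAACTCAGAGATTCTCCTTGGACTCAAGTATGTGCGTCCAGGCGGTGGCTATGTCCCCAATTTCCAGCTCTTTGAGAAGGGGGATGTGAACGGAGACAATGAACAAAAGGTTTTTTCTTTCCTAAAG
Sbsn exon 1: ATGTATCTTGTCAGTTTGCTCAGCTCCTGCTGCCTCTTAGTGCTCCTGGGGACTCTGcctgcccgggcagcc

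The coding part of Sbsn is repetitive. Within the counted stretch at chr7:30752450-30752547, 98 bases long, the same 44 bases occur 2 times with 10 bases between them, shown in capitals. Reads that map to several places were left out of the counts, per the file headers.
Sbsn repeat: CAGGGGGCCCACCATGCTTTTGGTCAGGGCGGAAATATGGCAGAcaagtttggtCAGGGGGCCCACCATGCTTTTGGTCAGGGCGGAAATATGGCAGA

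**Figure D1:**
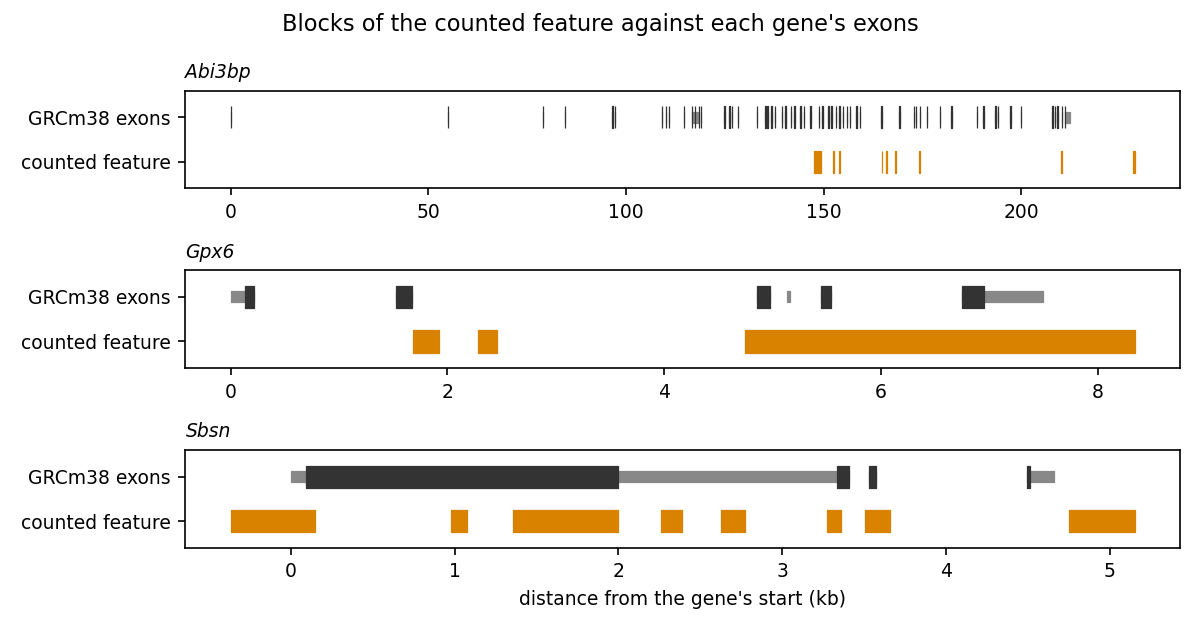
Position of the counted feature (orange) against the GRCm38 exons of each gene (tall dark bars coding, thin grey bars non-coding), in kb from the gene's start. The feature lies over 234 exon bases of Abi3bp, 994 of Gpx6 and 1305 of Sbsn, and partly over introns and flanks.

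Abi3bp was read in every library and was low in both KI libraries. It held 15 and 12 counts in KI replicates 1 and 3, against 88, 114 and 123 counts in WT replicates 1, 2 and 3. Scaled to library size by TMM, the levels in CPM (counts scaled to library size) were 2.03 and 1.49 CPM in KI and 11.6, 15.2 and 18.8 CPM in WT. Both KI libraries stood below all WT libraries, and the exact Poisson 95% intervals did not overlap, with 1.14 to 3.35 and 0.768 to 2.60 CPM in KI against 9.27 to 14.2 CPM in WT replicate 1, the lowest of WT. These intervals cover counting error only. The mean was 1.76 ± 0.39 CPM in KI (SD, n = 2) and 15.2 ± 3.63 CPM in WT (SD, n = 3). The edgeR log2 fold change was -3.10 (SE 0.45), an 8.59-fold lower level in KI. From the summed counts, 27 in KI and 325 in WT, the ratio of KI to WT was 0.116, with an exact binomial 95% interval of 0.0754 to 0.172 for counting error.

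Most positions of the Abi3bp feature are intronic, and other features lie over Abi3bp introns elsewhere. The 4 other features that lie over Abi3bp, labelled Abi3bp, Tfg, Adgrg7 and Gm15693, fall wholly into its introns where they overlap it and cover 8011 bases there. They held 0 counts in KI and 10 in WT, all 10 in the feature labelled Adgrg7, which had 5 each in WT replicates 1 and 3. In WT that feature held 3.71 counts per kb of its bases within Abi3bp, against 104 counts per kb of the feature that reads Abi3bp. Counts are of whole features. In the feature that reads Abi3bp, reads over introns therefore could not be told from reads over exons. No second feature covers exons of any of the 3 genes, so no second reading of them could be made.

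Gpx6 was low in both KI libraries as well, and these differed from each other. It held 16 and 53 counts in KI replicates 1 and 3, against 179, 215 and 179 counts in WT replicates 1, 2 and 3. The levels were 2.17 and 6.56 CPM in KI and 23.5, 28.7 and 27.4 CPM in WT. KI replicate 3 stood 3.03-fold above KI replicate 1, with Poisson intervals of 4.92 to 8.58 and 1.24 to 3.52 CPM that did not overlap, whereas the highest WT library was 1.22-fold above the lowest. Both KI libraries were still below all WT libraries. The mean was 4.37 ± 3.11 CPM in KI (SD, n = 2) and 26.5 ± 2.71 CPM in WT (SD, n = 3), a log2 fold change of -2.59 (SE 0.41) or a 6.02-fold lower level in KI. The ratio of summed counts, 69 in KI and 573 in WT, was 0.169 (0.129 to 0.217, exact binomial, counting error only).

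Sbsn was the most abundant of the 3 features and differed least. It held 227 and 251 counts in KI replicates 1 and 3, against 460, 702 and 474 counts in WT replicates 1, 2 and 3. The levels were 30.8 and 31.1 CPM in KI and 60.4, 93.8 and 72.5 CPM in WT. The KI libraries lay close together, and the WT libraries spread over a 1.55-fold range whose lowest member, replicate 1, was above both. The highest KI level was 0.514 of the lowest WT level. The mean was 30.9 ± 0.23 CPM in KI (SD, n = 2) and 75.6 ± 16.9 CPM in WT (SD, n = 3), a log2 fold change of -1.29 (SE 0.21) or a 2.44-fold lower level in KI. The ratio of summed counts, 478 in KI and 1636 in WT, was 0.409 (0.369 to 0.453, exact binomial, counting error only). In homogenate, fewer cells that express a gene and less of its RNA per cell cannot be told apart, for any of the 3 genes.

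**Figure D2:**
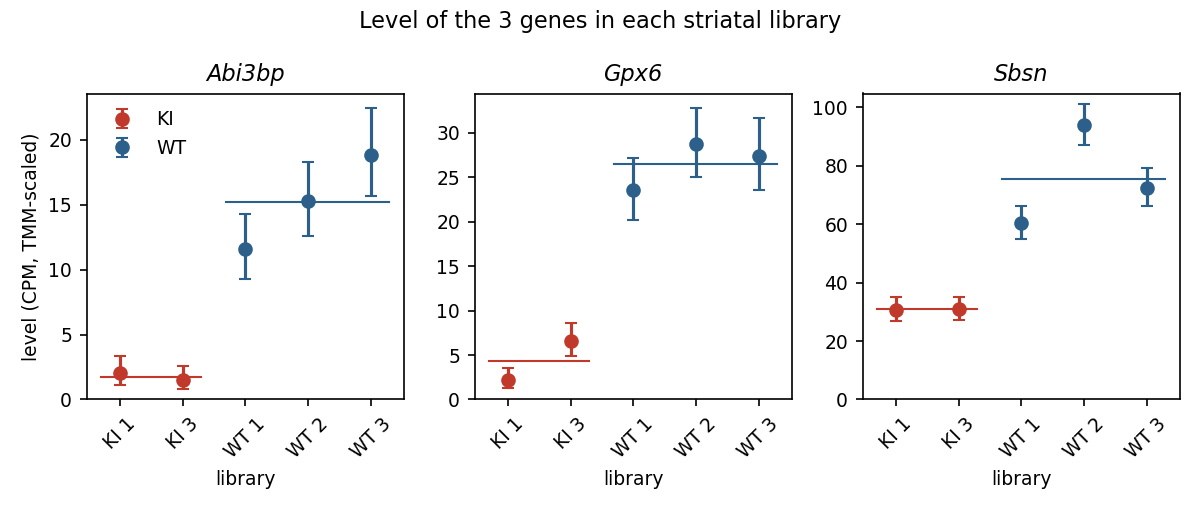
Level of Abi3bp, Gpx6 and Sbsn in each library in TMM-scaled CPM, KI in red and WT in blue. Points are libraries, bars exact Poisson 95% intervals for counting error and lines group means; the KI points lie below every WT point in all 3 panels.

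Levels per kb of feature place the genes among all tested features. Abi3bp stood at 0.562 CPM per kb in KI and 4.86 in WT, the 12.3rd and the 47.8th percentile of group means. Gpx6 stood at 1.09 CPM per kb in KI and 6.60 in WT, the 21.6th and 53.9th percentile. Sbsn stood at 14.1 CPM per kb in KI and 34.6 in WT, the 69.0th and 83.8th percentile. A feature's length is not the length of the transcript under it, so these ranks describe features. Among the 7925 features with a WT mean of at least 10 CPM, the log2 fold changes of Abi3bp, Gpx6 and Sbsn ranked 2, 4 and 24 from the lowest. That pool was set by the WT level alone, and these fold changes chose the genes. The ranks therefore describe the choice and are not a test.

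The values that chose the genes were edgeR adjusted p = 0.0156 for Abi3bp, 0.0308 for Gpx6 and 0.0328 for Sbsn, under a threshold of 0.05. Over all tested features 14 (0.102%) passed, and 8 (0.0585%) passed as lower in KI. Both KI libraries lay below all WT libraries in 11.1% of tested features. Just inside the threshold on the lower side were Sbsn and the potassium channel gene Kcnh3 (log2 fold change -1.14, edgeR adjusted p = 0.0392), and just outside it was Id4, an inhibitor of helix-loop-helix factors (-0.66, edgeR adjusted p = 0.0509).

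The calls depended on single libraries. The direction could not, since both KI libraries lay below all WT libraries for each gene. Abi3bp missed the edgeR threshold when WT replicate 2 (adjusted p = 0.101), WT replicate 3 (0.245) or KI replicate 3 (0.159) was left out. Gpx6 missed it when WT replicate 2 (edgeR adjusted p = 0.172), WT replicate 3 (0.297) or KI replicate 1 (0.0623) was left out. Its fold change also moved with the KI library used, to -3.60 without KI replicate 3 and -2.02 without KI replicate 1. Sbsn missed it when KI replicate 1 (edgeR adjusted p = 0.120), KI replicate 3 (0.2501), WT replicate 2 (0.172) or WT replicate 3 (0.297) was left out. Among the 5 libraries left out in turn, only the loss of WT replicate 1 left all 3 genes past the threshold, with log2 fold changes of -3.26, -2.66 and -1.42 for Abi3bp, Gpx6 and Sbsn.

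**Figure D3:**
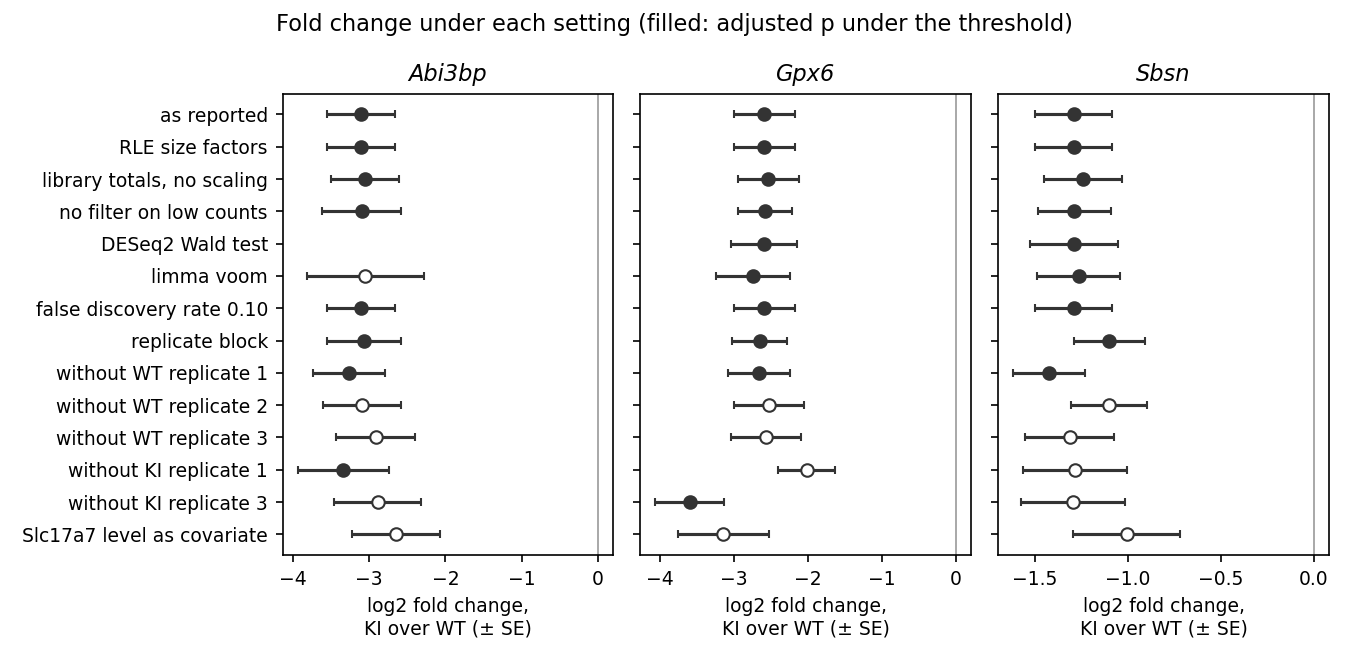
Log2 fold change of each gene, KI over WT, with its standard error under each setting. Filled points had an adjusted p under the threshold and open points did not; every point lies below 0, and DESeq2 gave Abi3bp no adjusted p.

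The feature over Sbsn also covers 71 bases of an entry annotated as Tmem147os. This non-coding transcript is annotated from upstream of Sbsn, on the same strand, to near the end of Sbsn. The other feature over Tmem147os lies over Gapdhs, the sperm-specific glyceraldehyde-3-phosphate dehydrogenase gene, 9.20 kb before the Sbsn feature. It covers 81 bases of the same Tmem147os entry and 497 bases of another entry of that name. It stood at 47.4 and 55.1 CPM in KI and 55.2, 79.0 and 80.2 CPM in WT, and its edgeR log2 fold change was -0.48 (SE 0.19, adjusted p = 0.680). KI replicate 3 and WT replicate 1 lay side by side there, and the feature did not pass. The share of Tmem147os in either count was not tested. On the other side, 2.14 kb from the Sbsn feature, lies the feature over Dmkn, which encodes dermokine of the same epidermal cluster. Dmkn averaged 1.65 ± 1.11 CPM in KI (SD, n = 2) and 1.503 ± 1.33 CPM in WT (SD, n = 3). WT replicate 3 had 0 counts there, which allows up to 0.459 CPM.

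The neighbours of Abi3bp and Gpx6 did not pass either. As for Sbsn, these are the nearest tested features named for 1 protein-coding gene, so closer genes may have been passed over. Their distances are between counted features, and the feature over Abi3bp starts inside the gene, at 56625524. Before Abi3bp, 655.6 kb away, Rpl24, a ribosomal protein gene, averaged 459.0 ± 15.6 CPM in KI (SD, n = 2) and 479.7 ± 49.0 CPM in WT (SD, n = 3). After it, 415.8 kb away, Tomm70a, a mitochondrial import receptor gene, stood at 63.6 ± 6.20 CPM in KI and 78.4 ± 7.32 CPM in WT (edgeR adjusted p = 0.835). Before Gpx6, 1937 kb away, Stard3nl stood at 37.9 ± 2.41 CPM in KI and 30.3 ± 8.46 CPM in WT. After it, 40.9 kb away, the zinc finger gene Zscan12 stood at 2.14 ± 0.23 CPM in KI and 1.43 ± 0.59 CPM in WT. Tomm70a was read over 79 exon bases and Stard3nl over 107, and the Rpl24 feature also lies over Gm28037. Abi3bp is on the chromosome of Adcy5, 21.2 Mb from it, and Gpx6 and Sbsn are on other chromosomes. No feature covers exons of Adcy5, so the knocked-in gene could not be measured and the genotype labels could not be checked on it.

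Promoter windows of Gpx6 and Sbsn, 250 bases before and 50 after the RefSeq start, were available in GRCm38.p6, and both are shown because both genes were low in the same libraries. The windows were searched on both strands for the full cAMP response element TGACGTCA, its core TGACG and the AP-1 site TGANTCA, where a full element also holds the core. The Gpx6 window, chr13:21311953-21312252 on the plus strand, holds 1 core, at base 240, and no other match. The Sbsn window, chr7:30751221-30751520 on the plus strand, holds 2 AP-1 sites, at bases 132 and 245, and no cAMP response element or core. Of 32851 windows in the RefSeq set, 1.79% hold the full element, 20.8% the core and 7.81% the AP-1 site. All 300 bases of the Sbsn window lie under the counted feature, and 0 bases of the Gpx6 window do. Capitals mark the matches, which describe letters and not binding.
Gpx6 promoter: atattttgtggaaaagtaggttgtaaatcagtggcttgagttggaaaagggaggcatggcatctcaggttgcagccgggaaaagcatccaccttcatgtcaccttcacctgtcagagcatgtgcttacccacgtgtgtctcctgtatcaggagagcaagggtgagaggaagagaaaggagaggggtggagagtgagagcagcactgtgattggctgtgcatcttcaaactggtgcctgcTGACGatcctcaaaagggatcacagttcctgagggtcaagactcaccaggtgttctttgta
Sbsn promoter: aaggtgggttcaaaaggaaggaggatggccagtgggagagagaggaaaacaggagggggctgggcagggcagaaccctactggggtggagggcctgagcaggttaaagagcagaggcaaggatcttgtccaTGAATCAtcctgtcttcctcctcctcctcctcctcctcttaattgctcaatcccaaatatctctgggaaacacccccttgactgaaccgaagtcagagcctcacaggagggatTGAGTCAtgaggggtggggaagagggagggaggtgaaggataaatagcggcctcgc

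The genes most like each member across the 5 libraries were found by Pearson's r of log2 CPM among 8200 other features named for 1 protein-coding gene with a mean of at least 1 CPM. The libraries share the contrast that chose the members, so r is a description. For Abi3bp these were Necab1, a neuronal calcium-binding protein gene (r = 0.999), the kinase gene Cdk20 (0.999) and the syntrophin gene Sntg2 (0.998). Necab1 stood at 312.7 and 287.7 CPM in KI and 515.4, 553.4 and 570.5 CPM in WT, and its feature also lies over Gm11837. The libraries had the same order as for Abi3bp, whose order is not resolved within KI or between WT replicates 2 and 3. For Gpx6 they were Ddit4l, an mTOR pathway inhibitor gene, Nav2, a neuron navigator gene, and Mms22l, a DNA repair gene (r = 0.995 each). Ddit4l stood at 4.88 and 9.78 CPM in KI and 17.5, 21.5 and 19.0 CPM in WT, but was read over 7 exon bases. For Sbsn they were Kirrel3, a synaptic adhesion gene (r = 0.998), the kinase gene Mapk4 (0.993) and the lactate transporter gene Slc16a3 (0.993). Sntg2 (1.11 to 3.52 CPM over 130 exon bases), Mms22l (1.76 to 6.58 CPM) and Kirrel3 (3.47 to 9.62 CPM over 266 exon bases) were low. Their r values therefore rest on few counts. An r above 0.95 was found for 105 features with Abi3bp, 70 with Gpx6 and 100 with Sbsn. Between members r was 0.906 for Abi3bp and Gpx6, 0.958 for Abi3bp and Sbsn and 0.916 for Gpx6 and Sbsn.

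Within the groups some differences between libraries were beyond counting error. Across features, the chi-square per degree of freedom between libraries of a group was 6.37 to 15.8, above counting error. In WT, Sbsn was highest in replicate 2, with a Poisson interval of 87.0 to 101.0 CPM above those of replicates 1 and 3. For Abi3bp the interval of WT replicate 3 (15.6 to 22.5 CPM) lay above that of WT replicate 1 (9.27 to 14.2 CPM). The intervals of WT replicates 2 and 3 overlapped for Abi3bp and for Gpx6, so the order of these libraries is not resolved. In KI, Gpx6 was higher in replicate 3, and the intervals of the KI libraries overlapped for Abi3bp and Sbsn.

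Markers of cortical projection neurons varied widely between libraries of the same group. Slc17a7, their vesicular glutamate transporter gene, stood at 96.1 and 22.0 CPM in KI and 73.6, 286.7 and 210.3 CPM in WT (log2 fold change -1.69, SE 0.54, edgeR adjusted p = 0.440). Neurod2, a transcription factor gene of the same cells, stood at 6.64 and 1.73 CPM in KI and 1.58, 32.1 and 30.0 CPM in WT. KI replicate 1 was above WT replicate 1 for both markers, and the groups overlapped. Slc17a7 passed the edgeR threshold without KI replicate 1 (log2 fold change -3.11, adjusted p = 0.0413) and without WT replicate 1 (-2.07, adjusted p = 0.0100), and stood at -0.98 without KI replicate 3. Neurod2 had an edgeR log2 fold change of -2.35 (SE 0.88, adjusted p = 0.603), which passed without WT replicate 1 (-2.89, adjusted p = 0.0021) and ranged to -3.60 without KI replicate 1. Both also passed with no filter on low counts. With the Slc17a7 level as a covariate the edgeR log2 fold changes were -2.65 for Abi3bp (SE 0.58), -3.14 for Gpx6 (SE 0.61) and -1.01 for Sbsn (SE 0.29), with adjusted p = 0.526, 0.493 and 1.000 in a fit that called 2 features in all.

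**Figure D4:**
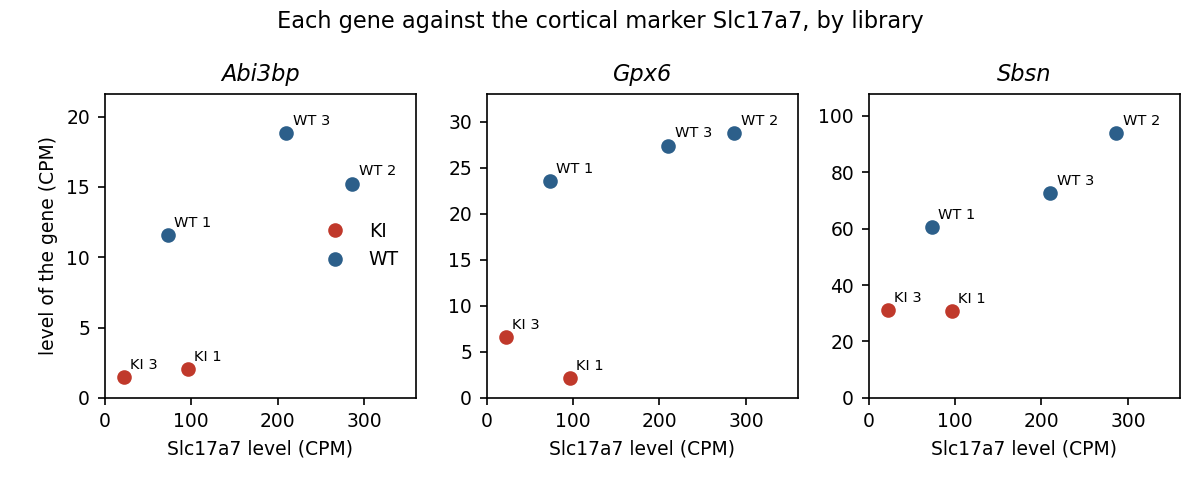
Level of each gene against that of the cortical marker Slc17a7, both in TMM-scaled CPM, with 1 point per library, KI in red and WT in blue. Slc17a7 levels of the groups overlap, at 22.0 to 96.1 CPM in KI and 73.6 to 286.7 CPM in WT.

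Sums over marker lists were compared for other cell types, and 0 of the tested markers passed in edgeR. At an unadjusted p under 0.05, against 6.40% of all tested features, were 3 of 7 spiny projection neuron markers, 2 of 5 cortical, 1 of 3 fibroblast and mural and 1 of 4 oligodendrocyte markers. DESeq2 called 2 of the 7 spiny projection neuron markers, against 1.83% of the features it gave an adjusted p. Of the cortical list 5 of 12 markers were measured, with sums of 354.9 to 408.8 CPM in KI and 414.7 to 736.0 CPM in WT. Of the spiny projection neuron list 7 of 18 were measured, with sums of 7903 to 8866 CPM in KI and 9195 to 12101 CPM in WT, so the labelled tissue was seen in every library. Microglial markers (2 of 8) summed to 17.2 to 21.2 CPM in KI and 21.4 to 28.6 CPM in WT, oligodendrocyte markers (4 of 8) to 1470 to 1522 and 1561 to 2071 CPM, and astrocyte markers (3 of 8) to 124.7 to 131.3 and 133.4 to 157.7 CPM. In these 5 lists the KI sums lay below the WT sums. Both KI libraries lay below all WT libraries in 11.1% of single tested features. No such share was taken for sums, in which abundant markers weigh most. Sums overlapped for fibroblast and mural (4 of 11, 63.3 to 90.0 CPM in KI and 72.8 to 77.8 in WT), endothelial (4 of 8, 149.96 to 155.0 and 127.5 to 156.7), thalamic or hypothalamic (4 of 9, 47.6 to 152.8 and 52.2 to 280.4) and choroid plexus markers (1 of 7, 0 to 2.72 and 0 to 0.657). None of the measured markers was at 0 in every library, and the part of cell composition in the levels of the 3 genes was not tested.

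Other genes of glutathione and peroxide metabolism did not follow Gpx6 as a list. Of 41 other genes 15 were measured and 0 passed in either direction (edgeR, against 0.102% of all tested features), with 2 at an unadjusted p under 0.05 (6.40% of all tested features) and 1 called by the DESeq2 Wald test (1.83% of the features it gave an adjusted p). Fold changes were positive for 7 and negative for 8, with a median log2 fold change of -0.04 against -0.0021 over all tested features. Txnip, which encodes an inhibitor of thioredoxin, stood at 140.7 and 103.4 CPM in KI and 79.7, 69.9 and 71.9 CPM in WT (edgeR adjusted p = 0.105, DESeq2 adjusted p = 0.0124). The Txnip feature also lies over Gm15441. Gsr, the glutathione reductase gene, stood at 9.62 and 16.3 CPM in KI and 22.6, 30.2 and 19.6 CPM in WT (edgeR adjusted p = 0.539), over 100 exon bases. Of the 8 glutathione peroxidase genes Gpx6 was the only 1 with a feature of its own. The features over exons of Gpx1, Gpx3, Gpx7 and Gpx8 were not named for them by position, and no feature covers exons of Gpx2, Gpx4 or Gpx5.

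Genes of the ABI and WAVE complex and of the brain matrix were measured for 21 of 41 members other than Abi3bp. In the edgeR test 0 of 21 passed in either direction, against 0.102% of all tested features. At an unadjusted p under 0.05 was 1 of 21, near the 6.40% of all tested features. The DESeq2 Wald test called 0, against 1.83% of the features it gave an adjusted p, and it gave Vcan none. Fold changes were positive for 12 and negative for 9, with a median log2 fold change of 0.07. Vcan, the matrix proteoglycan versican, stood at 3.66 and 8.05 CPM in KI and 8.14, 17.4 and 13.2 CPM in WT (edgeR adjusted p = 0.673). Tnr, the matrix glycoprotein tenascin-R, stood at 63.6 and 68.9 CPM in KI and 46.1, 57.1 and 54.9 CPM in WT (edgeR adjusted p = 0.833).

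Epidermal genes other than Sbsn were mostly without a feature, and so not measured, or without reads. Of 22 genes 10 had a feature, 6 of these had 0 counts in every library and 3 were tested. In the edgeR test 0 of 3 passed, against 0.102% of all tested features. At an unadjusted p under 0.05 was 1 of 3, against 6.40%. The DESeq2 Wald test called Lor and gave Krt1 and Dmkn no adjusted p. It called 1.83% of all features it gave an adjusted p. The median log2 fold change was 0.93 over the 3 tested genes. Lor, which encodes the cornified envelope protein loricrin, stood at 45.1 and 48.3 CPM in KI and 25.6, 26.1 and 21.1 CPM in WT (edgeR adjusted p = 0.104, DESeq2 adjusted p = 0.0233), opposite in sign to Sbsn. The keratin gene Krt1 stood at 4.46 ± 1.93 CPM in KI (SD, n = 2) and 2.32 ± 0.71 CPM in WT (SD, n = 3).

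**Figure D5:**
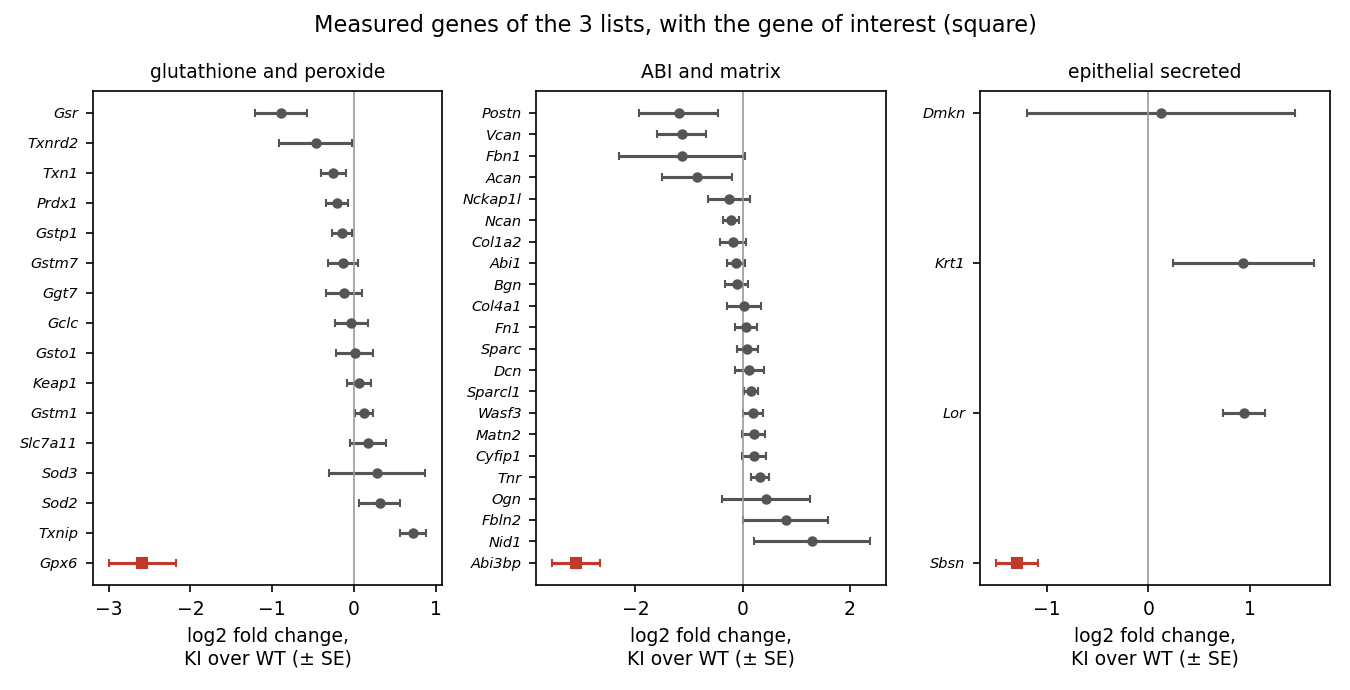
Log2 fold change, KI over WT, with standard error for each measured gene of 3 lists, and for Gpx6, Abi3bp and Sbsn as red squares. The other genes scatter around 0 in the first 2 panels, and none of them passed the edgeR threshold.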

How the data were processed

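RNA sequencing of striatal homogenate gave 5 libraries, grouped by genotype from the labels. The authors made raw counts of pairs per feature with featureCounts 2.0.1 on the GRCm39 annotation of Ensembl release 103, per the file headers. Pairs were assigned to every feature they overlap without use of strand, so antisense and overlapping genes cannot be told apart. No source used here gives the aligner or its build. Libraries held 6595105 to 7910584 counts, where 0 counts allow 0.379 to 0.455 CPM (3 counts, counting error only). Library correlations of log2 CPM were 0.933 to 0.948.

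Features were named by the GRCm38 gene (GENCODE M21) whose exons lie at their positions, with bedtools 2.31.1: the gene alone there, or the only protein-coding one, which named 16422 features. No coordinate was converted. After filterByExpr and TMM scaling, the quasi-likelihood test of edgeR 4.0.16 (R 4.3.3) was run on all features kept, and p-values were adjusted over these by Benjamini-Hochberg. Alternatives were DESeq2 1.42.0, limma 3.58.1 voom, other scalings, filter and threshold, a replicate block, each library left out and Slc17a7 as a covariate. Named were the 3 members, the 3 features most like each, the genes with the smallest p of each list and 2 cortical markers. The neighbours named were the nearest tested features with the name of 1 protein-coding gene on each side. The members and lists were chosen with earlier results of these data known.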

Additional observations from a re-analysis of the deposited data

How the results depend on the processing

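The direction of Abi3bp, Gpx6 and Sbsn held under every alternative run, with log2 fold changes from -3.34 to -2.65, from -3.60 to -2.02 and from -1.42 to -1.01. Both KI libraries lay below all WT libraries for each gene, so leaving out 1 library could not turn the direction. The values were then -3.34 to -2.89 for Abi3bp, -3.60 to -2.02 for Gpx6 and -1.42 to -1.10 for Sbsn. Abi3bp missed the threshold in limma voom (-3.05, adjusted p = 0.129). With Slc17a7 as a covariate all 3 missed it, at -2.65, -3.14 and -1.01. Of 14 changed features the count became 183 with no low-count filter, 123 in the DESeq2 Wald test, 52 in limma voom, 67 at a false discovery rate of 0.10, 154 with the replicate block, 2 with the covariate and 2 to 161 with 1 library left out. The glutathione and the epidermal list each had 1 call, Txnip and Lor, with no filter, in DESeq2 and with the replicate block, and 0 to 1 with 1 library left out. The sign turned for Rpl24 without WT replicate 1 (0.022, range -0.13 to 0.022 with 1 library left out), for Dmkn without WT replicate 3 (-0.44) and without KI replicate 1 (-0.79, range -0.79 to 0.72) and for Neurod2 with the covariate (0.77), none of them past the threshold. The cause was not tested. The labels do not say what the replicate numbers stand for. WT replicates 1 and 3 deviated with KI replicates 1 and 3 at r = 0.104 across features, and WT replicate 2 has no partner. This 1 contrast cannot settle whether the numbers mark pairs. With the block the 3 genes had log2 fold changes of -3.07, -2.65 and -1.10 and passed. With 1 KI library left out, the other is assumed to vary like WT. No other feature covers the 3 genes, so that alternative gave no value. At 12 to 53 counts in the KI libraries, depth limits Abi3bp and Gpx6 most.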
